A study of Mus musculus with 35 samples.

Results

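The nuclear-encoded subunits of the mitochondrial respiratory chain and of ATP synthase were followed across B-cell development and in 3 kinds of mouse lymphoid tumour. The members were the genes whose annotated symbol starts with Nduf, Uqcr, Cox4, Cox5, Cox6, Cox7, Cox8 or Atp5, together with Sdha, Sdhb, Sdhc and Sdhd. The rule took 84 of the 12393 genes on the array and 156 of the 20380 probe sets (groups of short probes for a transcript) that carry a single gene symbol. Where a gene had several probe sets, as 45 members did, the probe set with the highest mean over all 35 arrays stood for the gene. By complex, the set held 33 subunits and 5 assembly factors of complex I, 4 subunits of complex II, 8 of complex III, 11 common subunits and 6 tissue-restricted isoforms of complex IV, and 17 subunits of complex V. The common subunits of complex IV are counted with Cox7a2l, a supercomplex assembly protein, among the 11.

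RNA of sorted cells and of tumours was amplified with a NuGEN Ovation kit and hybridised to Affymetrix Mouse 430A2 arrays, 1 array per sample, giving a log2 intensity per probe set. The tumours came from Lig4/P53 double knock-out mice (6 arrays), from mice transgenic for both Myc and Bcl6 (3 arrays) and from Bcl6 knock-in mice (4 arrays). The labels call all 13 lymphoid tumours; the promoters of the transgenes, the strain background and the tumours' content of normal cells are not given in the sources used here. The 22 normal arrays were of wild-type mice. Pro-B cells (B220-positive, CD43-high and IgM-negative, 3 arrays) were sorted from bone marrow of strain 129 for replicates 1 and 2 and of strain B6 for replicate 3. Pre-B cells (CD43-low, otherwise gated as pro-B, 3 arrays) came from 129 bone marrow. Transitional cells (positive for B220 and Cd93, 4 arrays) came from 129 spleen. Germinal centre (GC) cells (B220-positive and high for binding of the lectin PNA, 5 arrays) and plasmablasts (B220-positive, Cd138-positive, Cd93-negative, 4 arrays) came from B6 spleen, and plasma cells (gated as plasmablasts except for low B220, 3 arrays) from B6 bone marrow. The step from transitional to GC cells is therefore also a change of strain, and the 2 cannot be told apart. Ages are not given in the sources used here, and no label says whether replicates were separate mice, so p-values measure the spread between these samples.

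Complexes I and II feed electrons from NADH and succinate into the quinone pool, complex III passes them to cytochrome c, and complex IV reduces oxygen. Complexes I, III and IV pump protons, and the return of protons through the rotating c ring of complex V drives the synthesis of ATP. Most subunits are encoded in the nucleus, a few in mitochondrial DNA, and factors such as NRF1, GABP and YY1 are known to act on many of the nuclear genes. In B cells, activation and the secretion of antibody are known to place high demands on mitochondria.

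Several arrays stood apart. Over all probe sets, log2 values were spread most narrowly on 3 arrays. Their interquartile ranges were 2.09 for pro-B replicate 1, 2.03 for pre-B replicate 2 and 2.15 for replicate 2 of the Bcl6 tumours. Myc/Bcl6 tumours were also narrow, at 2.63, 2.85 and 2.33 for replicates 1 to 3, against 3.95 to 4.14 in GC cells. They were kept in the fits that left out the 3 arrays of narrow spread. The highest correlation with any other array was 0.6737 for that pro-B array, 0.5877 for that pre-B array and 0.7805 for Myc/Bcl6 replicate 2. The 18S ribosomal probe sets read 4.14 to 6.15 in tumours and 4.02 to 7.38 in plasma cells, against 10.04 to 11.28 in the other normal arrays. The excess of 3′ over 5′ signal of the Actb and Gapdh controls, which is larger where the copied RNA is shorter, was 2.25 to 4.69 log2 units in tumours, 4.59, 4.46 and 0.45 in plasma cell replicates 1 to 3, and 0.68 to 2.95 in the other normal arrays. Hepatocyte markers averaged 12.21 in Myc/Bcl6 tumour replicate 2 and at most 5.79 in any normal array. Granulocyte markers, which no B-cell gate should hold, averaged 10.11 to 10.68 in pro-B cells and 6.6 to 8.95 in GC cells, against 3.1 to 3.84 in plasma cells. In such bulk samples a smaller share of a cell type and less RNA per cell cannot be told apart.

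RefSeq promoters (GRCm38.p6, 250 bases before to 50 after the start) were found for 70 of the 84 members. The NRF1 letters (GCGCA, any base, then GCGC, read on either strand) occurred in 15 of the 70 (21.4%), against 1293 of all 27025 promoters (4.78%). The YY1 letters AANATGGCG (CGCCATNTT) occurred in 7 members (10%) and in 679 of all promoters (2.51%), and the GABP letters CCGGAAGTG (CACTTCCGG) in 2 members (2.86%) and in 558 of all (2.06%). The motifs were searched on both strands, and as 24 of the 70 members (34.3%) held any of the 3, against 8.71% of all promoters, no member held more than 1 of them. Among members named below, Ndufv2, Ndufaf7, Ndufs7 and Ndufc1 held no NRF1 match. The 250 bases before the start of 4 members that did hold one are shown, so they do not stand for all members. They are written 5′ to 3′ on the gene's strand, which is the minus strand for all 4, with NRF1 matches in capitals.
Sdha, chr13:74350241-74350490: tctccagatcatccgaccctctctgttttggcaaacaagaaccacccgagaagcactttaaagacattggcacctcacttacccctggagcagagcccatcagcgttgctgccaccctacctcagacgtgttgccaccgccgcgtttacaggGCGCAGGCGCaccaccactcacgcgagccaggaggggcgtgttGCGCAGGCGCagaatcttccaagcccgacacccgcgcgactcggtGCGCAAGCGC
Sdhd, chr9:50603850-50604099: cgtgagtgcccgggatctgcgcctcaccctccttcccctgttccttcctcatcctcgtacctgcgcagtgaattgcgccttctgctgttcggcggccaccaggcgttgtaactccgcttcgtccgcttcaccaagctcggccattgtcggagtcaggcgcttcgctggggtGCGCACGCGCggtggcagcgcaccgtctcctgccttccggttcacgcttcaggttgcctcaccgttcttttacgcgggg
Cox6a1, chr5:115348959-115349208: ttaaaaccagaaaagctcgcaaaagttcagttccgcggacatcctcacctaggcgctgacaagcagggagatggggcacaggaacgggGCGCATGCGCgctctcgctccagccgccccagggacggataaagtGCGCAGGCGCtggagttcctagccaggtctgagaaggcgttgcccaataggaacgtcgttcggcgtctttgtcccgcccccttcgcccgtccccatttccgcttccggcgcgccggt
Atp5g2, chr15:102671048-102671297: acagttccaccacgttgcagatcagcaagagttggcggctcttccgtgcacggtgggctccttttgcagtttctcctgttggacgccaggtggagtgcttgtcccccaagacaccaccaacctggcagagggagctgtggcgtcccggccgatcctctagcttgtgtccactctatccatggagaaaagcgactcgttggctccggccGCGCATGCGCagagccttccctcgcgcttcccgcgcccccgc
Sdha held 3 matches, Cox6a1 2, and Sdhd and Atp5g2 1 each. A match is a description of the letters and not a measured binding site.

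The YY1 letters are shown because the study's title names this factor. In 6 of the 7 members the match lay just after the start, with its first base at position 17 to 36, and in Ndufb11 it lay 211 bases before it. The matches are written on the gene's strand with 5 bases on each side and the match in capitals; Atp5b and Ndufs7 lie on the plus strand and the others on the minus strand.
Ndufa9, chr6:126849102-126849120: gggagAAGATGGCGgccgc
Ndufc1, chr3:51408920-51408938: ggaacAAGATGGCGccgtc
Ndufs4, chr13:114388046-114388064: acaggAAGATGGCGgcggt
Ndufs7, chr10:80249468-80249486: aggccAAGATGGCGgcgct
Ndufb11, chrX:20617817-20617835: aacacAAAATGGCGacgag
Atp5b, chr10:128083318-128083336: gattcCGCCATGTTgagtc
Atp5j2, chr5:145191505-145191523: acttcAAGATGGCGtcact
Of these 7 genes, only Ndufs7, an iron-sulphur core subunit of complex I, passed the F-test between normal stages given below.

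Averaged over all common subunits and assembly factors, group means stood highest in plasma cells and Lig4/P53 tumours and lowest in the other tumours. Single low arrays weighed on this order, and the complexes did not all follow it. Each gene was centred on the mean of its 9 group means, and the deviations were averaged over a complex's genes on each array. Over the 78 members that are not tissue-restricted, the mean deviation was 0.39 ± 0.26 log2 units in Lig4/P53 tumours (SD, n = 6), -0.34 ± 0.56 in Myc/Bcl6 tumours (n = 3) and -0.30 ± 0.51 in Bcl6 tumours (n = 4). Along development it was -0.14 ± 0.82 in pro-B cells, 0.06 ± 0.48 in pre-B cells, -0.09 ± 0.15 in transitional cells, 0.04 ± 0.25 in GC cells, 0 ± 0.34 in plasmablasts and 0.39 ± 0.03 in plasma cells. The 3 plasma cell arrays, at 0.36 to 0.41, lay above all 4 plasmablast arrays, at -0.50 to 0.22, whereas neighbouring earlier stages overlapped. The widest groups each held an array far below the rest. These were pro-B replicate 1 at -1.07, pre-B replicate 2 at -0.49, Myc/Bcl6 replicate 3 at -0.99 and Bcl6 replicate 2 at -1.05. The other arrays read 0.48 and 0.17 in pro-B cells and 0.37 and 0.29 in pre-B cells, so pro-B replicate 2 lay above all plasma cells. They read -0.02 and -0.01 in Myc/Bcl6 tumours and -0.13, -0.15 and 0.12 in Bcl6 tumours, within the GC range of -0.17 to 0.40.

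**Figure D1:**
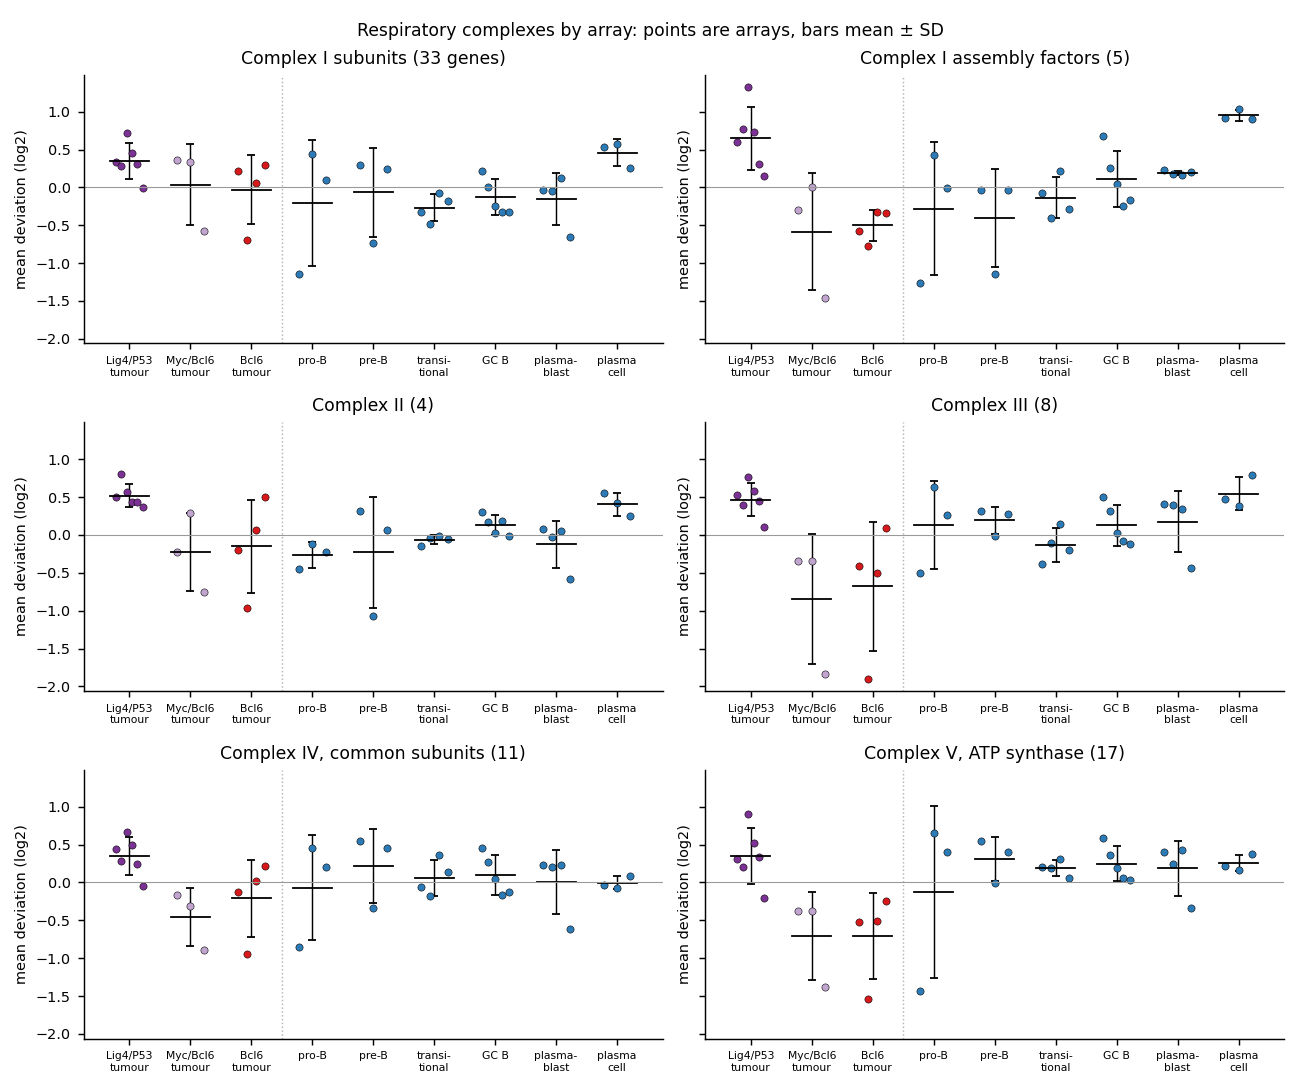
Mean deviation of the genes of each respiratory complex from the average of the 9 groups, in log2 units, for Lig4/P53, Myc/Bcl6 and Bcl6 tumours and then the 6 normal stages. Points are arrays and bars are mean ± SD. Complex V was at -0.71 ± 0.58 in Myc/Bcl6 and -0.71 ± 0.57 in Bcl6 tumours, and complex I assembly factors reached 0.95 ± 0.08 in plasma cells.

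The complexes differed in this pattern. In plasma cells the 5 complex I assembly factors deviated by 0.95 ± 0.08, complex III by 0.55 ± 0.22 and complex I by 0.46 ± 0.17, against 0 ± 0.08 for the common subunits of complex IV and 0.26 ± 0.11 for complex V, both below the pre-B means of 0.22 and 0.31. Complex I was lowest in transitional cells, at a mean of -0.27, and complex II in pro-B cells, at -0.26. In Bcl6 tumours complex I was at -0.03 ± 0.45, while complex V was at -0.71 ± 0.57 and complex III at -0.68 ± 0.85. In Myc/Bcl6 tumours the values were 0.04 ± 0.53 for complex I, -0.71 ± 0.58 for complex V and -0.85 ± 0.86 for complex III. In Lig4/P53 tumours all 6 common classes lay above the average, from 0.35 ± 0.24 for complex I to 0.65 ± 0.41 for the assembly factors. These averages are descriptions without a test.

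Across the 6 normal stages, 20 of the 84 members differed by limma's F-test at an adjusted p under 0.05 (23.8%), a smaller share than the 32.5% of all genes. Complex I assembly factors supplied 4 of 5 (Ndufaf1, Ndufaf4, Ndufaf5 and Ndufaf7), complex III 4 of 8 (Uqcrc2, Uqcrb, Uqcrq and Uqcr11), complex II 2 of 4 (Sdha and Sdhd), complex I 6 of 33, the tissue-restricted isoforms 2 of 6, complex IV 1 of 11 (Cox6a1) and complex V 1 of 17 (Atp5g2). Of the 20, 13 were highest in plasma cells, 4 in GC cells, 2 in pre-B cells and 1 in pro-B cells. The same count over all genes was not made, so whether such peaks are particular to the members is unknown. The 33 complex I subunits had a median range between stage means of 1.28 log2 units and the 17 of complex V of 1.01, against 1.21 over all members and 1.69 for complex III. Ndufb11, an accessory subunit of complex I, Cox5b of complex IV and Atp5a1, the alpha subunit of the F1 head of ATP synthase, are the members of highest mean intensity in their complexes and gave adjusted p-values of 0.722, 0.0673 and 0.673. Without the 3 arrays of narrow spread 51 members passed, among 62.7% of all genes.

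Plasma cells differed from plasmablasts in 10 members, of which 9 rose and 1 fell, or 11.9% of members against 14.3% of all genes (8.9% higher and 5.39% lower). Without the 3 arrays of narrow spread, none of them in these groups, 27 passed (23 higher and 4 lower), among 32.5% of all genes. Complex I supplied 4 of those that rose (Ndufv2, Ndufs7, Ndufa10 and Ndufb9), complex III 2 (Uqcrc2 and Uqcrfs1), and complex II, the assembly factors and the restricted isoforms 1 each (Sdha, Ndufaf7 and Cox6a2). No common subunit of complex IV passed, and the member that fell, Atp5g2, belongs to complex V. The median difference was 0.47 over the members and 0.22 over all genes, and 29 of the 33 complex I subunits had a positive difference.

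Uqcrc2, a core protein of complex III (chr7:120635189-120659523), had log2 intensities of 11.40, 11.43 and 10.73 in plasma cells, against 8.58, 9.16, 8.97 and 8.55 in plasmablasts. The groups did not overlap, and the difference was 2.37 ± 0.34 log2 units (SE), a 5.16-fold rise (adjusted p = 4.19e-05). Its other probe set gave 1.55 (adjusted p = 0.0189). Ndufv2, an iron-sulphur core subunit of the NADH module of complex I (chr17:66078795-66101559), had 10.24, 10.44 and 9.09 in plasma cells, against 7.47, 7.76, 7.83 and 7.33 in plasmablasts. The lowest plasma cell array still lay above every plasmablast, and the rise was 2.32 ± 0.40 (5.01-fold, adjusted p = 0.000367). Its other probe sets gave 1.47 (adjusted p = 0.00563) and 1.01 (adjusted p = 0.218).

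Ndufaf7, a complex I assembly factor, had 8.27, 8.20 and 8.20 in plasma cells, against 6.51, 6.36, 6.60 and 6.37 in plasmablasts. Both groups were tight, and the rise was 1.77 ± 0.32 (3.4-fold, adjusted p = 0.000575). Sdha, the flavoprotein of complex II that oxidises succinate, had 10.66, 10.75 and 10.27 in plasma cells, against 9.19, 9.12, 9.43 and 8.76 in plasmablasts. All plasma cell arrays were above all plasmablasts by a rise of 1.43 ± 0.32 (2.69-fold, adjusted p = 0.00418). Ndufs7 had 11.31, 11.29 and 11.17 in plasma cells, against 9.93, 9.80, 9.62 and 9.18 in plasmablasts, a rise of 1.63 ± 0.44 (adjusted p = 0.0141). Sdhd, the membrane anchor of complex II (chr9:50596340-50603849), had 7.81, 7.49 and 6.91 in plasma cells, against 8.10, 7.81, 7.39 and 6.81 in plasmablasts. Those values overlapped, with a difference of -0.12 ± 0.36 (adjusted p = 0.881).

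Atp5g2, which encodes subunit c of the rotating ring (chr15:102662868-102671047), had 6.96, 6.69 and 8.09 in plasma cells, against 9.70, 9.41, 9.74 and 9.04 in plasmablasts. The groups did not overlap, and the fall was -2.22 ± 0.39 (fold 0.214, adjusted p = 0.000452). Plasma cell replicates 1 and 2, whose control 3′ excess was as high as in the tumours, differed from replicate 3 in several members. The ring gene Atp5g1 read 8.42 and 8.42 in them and 11.58 in replicate 3, and Uqcrb, a small subunit of complex III, read 10.85 and 10.55 against 7.69. With replicate 3 as the only plasma cell array, the difference was 1.92 for Uqcrc2, 1.74 for Ndufaf7, 1.49 for Ndufv2 and -1.38 for Atp5g2. A single array shows no spread of its own, so no calls are counted from that fit. Granulocyte markers averaged 3.1 to 3.84 in plasma cells and 6.62 to 8.53 in plasmablasts, with 7 of 9 lower; their part in these differences was not tested.

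**Figure D2:**
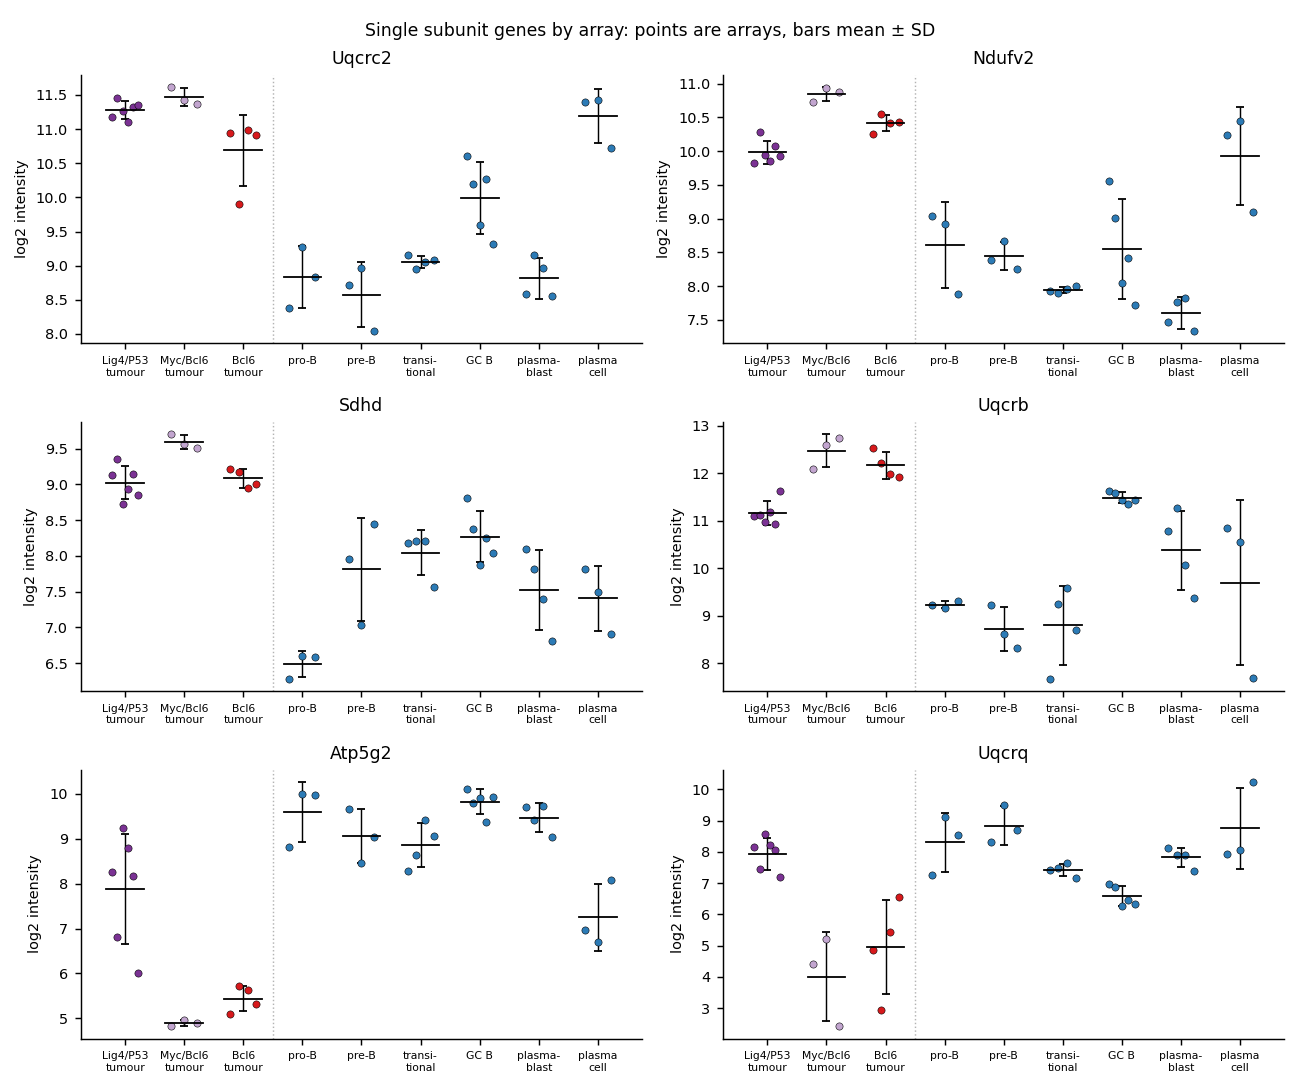
Log2 intensity of 6 genes on every array, with tumours left of the normal stages; points are arrays and bars mean ± SD. Uqcrc2 lies at 10.73 to 11.43 in plasma cells, above all 4 plasmablasts, and Atp5g2 at 4.82 to 5.71 in the 7 Myc/Bcl6 and Bcl6 tumours, below all normal arrays.

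GC cells differed from transitional cells in 9 members, of which 6 rose and 3 fell, or 10.7% of members against 13.5% of all genes (5.29% higher and 8.21% lower). Without the 3 arrays of narrow spread 23 passed (12 higher and 11 lower), among 41.5% of all genes. Leaving out transitional replicate 4 or GC replicate 2 gave 3 higher and 1 lower (9.5% and 7.99% of all genes called). Leaving out transitional replicate 2 or GC replicate 1 gave 3 higher and 2 lower (7.59% and 8.31%). Those that rose were Uqcrb and Uqcrc2 of complex III, Ndufb5 and Ndufb6 of complex I, the assembly factor Ndufaf7 and Cox6a1, the common form of a complex IV subunit. Those that fell were Ndufa6 and Ndufb9 of complex I and Cox7c of complex IV. No member of complex II or V passed. The split depends on the scaling. After a renewed quantile normalization 2 rose and 6 fell (7.33% of all genes), and with equal array medians 6 rose and 1 fell (10.9%). The median over all genes was -0.27 as deposited, -0.05 after quantile normalization and -0.24 with equal medians.

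Uqcrb (chr13:66900576-66905350) had 11.63, 11.58, 11.44, 11.35 and 11.43 in GC cells, against 7.67, 9.24, 9.58 and 8.70 in transitional cells. Every GC array was above every transitional array, and the rise was 2.69 ± 0.51 (6.44-fold, adjusted p = 0.00189), while its other probe set gave 0.86 (adjusted p = 0.116). Cox6a1 had 10.78, 10.62, 10.80, 10.61 and 10.36 in GC cells, against 9.58, 8.60, 9.42 and 9.33 in transitional cells. It rose by 1.40 ± 0.31 (2.64-fold, adjusted p = 0.00541) without overlap, but its other probe set gave -0.09. Uqcrc2 had 10.61, 10.19, 9.59, 10.27 and 9.32 in GC cells, against 9.16, 8.95, 9.05 and 9.08 in transitional cells. That rise of 0.94 ± 0.30 (adjusted p = 0.0403) stayed at 0.78 to 0.97 when any transitional array or GC replicate 1, 2 or 4 was left out, but with adjusted p-values of 0.0712 to 0.114 it was then not called. Ndufa6 had 8.32, 8.08, 7.61, 7.37 and 8.15 in GC cells, against 8.65, 8.49, 9.30 and 9.19 in transitional cells, a fall of -1.0 ± 0.25 (adjusted p = 0.0127).

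GC cells also carried higher levels of markers of other cells than transitional cells did. Of the granulocyte list 8 of 9 were higher, with averages of 6.6 to 8.95 in GC cells and 3.79 to 5.76 in transitional cells. Of the NK list 5 of 5 were higher (7.13 to 8.57 in GC cells, 4.1 to 4.63 in transitional cells), and so were 4 of 5 T-cell, 4 of 6 macrophage and 4 of 4 cell division genes. Their part in the 9 calls was not tested.

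The other 3 steps gave no called member by limma. Plasmablasts against GC cells had 0 of 84 (0.678% of all genes, 0.121% higher and 0.557% lower), with 11 at an unadjusted p under 0.05. Transitional against pre-B cells had 0 (5.84% of all genes, 2.93% higher and 2.91% lower), with 16 unadjusted, and pre-B against pro-B cells 0 (0.161% of all genes, 0.113% higher and 0.0484% lower), with 10 unadjusted. The smallest adjusted p-values were 0.0624 for Uqcrc2 in plasmablasts against GC cells (-1.18 ± 0.30), 0.0541 for Ndufaf4 in transitional against pre-B cells (1.41 ± 0.42) and 0.189 for Sdhd in pre-B against pro-B cells (1.32 ± 0.39). Sdhd had 7.96, 7.03 and 8.44 in pre-B cells, against 6.28, 6.60 and 6.58 in pro-B cells, without overlap. Without the 3 arrays of narrow spread, the counts were 6 members in plasmablasts against GC cells (6.82% of all genes), 11 in transitional against pre-B cells (2 higher and 9 lower, 14% of all genes) and 0 in pre-B against pro-B cells (0.702% of all genes). In transitional against pre-B cells 9 of 9 granulocyte, 5 of 7 erythroid and 4 of 4 early B genes were lower. Granulocyte genes averaged 3.79 to 5.76 in transitional and 9.35 to 11.33 in pre-B cells; their part was not tested.

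Lig4/P53 tumours differed from pro-B cells, the bone marrow stage set beside them here, in 24 members, of which 21 rose and 3 fell. That is 28.6% of members, against 21.1% of all genes (13.2% higher and 7.91% lower). Rises were counted in 8 of 33 complex I subunits, 3 of 5 assembly factors, 2 of 4 members of complex II, 2 of 8 of complex III, 2 of 11 of complex IV and 4 of 17 of complex V. Falls were counted in Uqcr11 of complex III, in the testis isoform Cox6b2 and in Atp5g2. The excess of rises depended on the processing. With array weights 20 rose and 20 fell, among 36% of all genes. After a renewed quantile normalization 15 rose and 10 fell (18.6% of all genes), and the median over members was -0.07 instead of 0.27. Pro-B replicate 1, far below the other 2 pro-B arrays, carried part of the count, and 14 members passed without it (10 higher and 4 lower, 12.2% of all genes), while 26 passed (16 higher and 10 lower, 19.9% of all genes) without all 3 arrays of narrow spread.

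Uqcrc2 ranged from 11.10 over a median of 11.29 to 11.46 in Lig4/P53 tumours, against 8.38, 9.28 and 8.84 in pro-B cells. The tumours lay together and well apart from pro-B cells, with a rise of 2.44 ± 0.30 (5.44-fold, adjusted p = 7.29e-07). Sdhd ranged from 8.72 over 9.04 to 9.35 in the tumours, against 6.28, 6.60 and 6.58 in pro-B cells. This rise of 2.54 ± 0.30 (5.81-fold, adjusted p = 5.11e-07) had no overlap, and the other Sdhd probe set gave 1.67 (adjusted p = 0.0804). Ndufv2 ranged from 9.83 over 9.93 to 10.29 in the tumours, against 9.04, 8.92 and 7.88 in pro-B cells, a rise of 1.37 ± 0.32 (adjusted p = 0.00249) that was 0.98 (adjusted p = 0.0621) after quantile normalization.

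Atp5mpl, a small membrane subunit of ATP synthase, ranged from 10.39 over 11.41 to 12.32 in Lig4/P53 tumours, against 5.40, 9.18 and 9.54 in pro-B cells. The groups did not overlap, and the rise was 3.29 ± 0.54 (9.79-fold, adjusted p = 6.31e-05), or 1.97 (adjusted p = 0.00137) without pro-B replicate 1. Ndufaf4, a complex I assembly factor, ranged from 8.11 over 8.79 to 9.30 in the tumours, against 5.60, 7.94 and 6.51 in pro-B cells, and rose by 2.09 ± 0.40 (adjusted p = 0.000385). Ndufc1, an accessory subunit of complex I, read 5.35 in pro-B replicate 1 and 10.57 and 9.96 in the others, against 10.41 to 11.25 in the tumours. Its rise of 2.13 ± 0.58 rested on that array, since it was 0.49 (adjusted p = 0.472) without it and larger without either of the others. Cox6b2 ranged from 4.27 over 4.85 to 5.46 in the tumours, against 9.84, 6.01 and 6.99 in pro-B cells. It fell by -2.73 ± 0.52 (adjusted p = 0.000302), or by -1.62 (adjusted p = 0.0144) without pro-B replicate 1. No fold is given, since the tumour values lay near or below those arrays' medians over genes, 5.12 to 5.69. Other probe sets of the called members mostly moved the same way, with all of them on the same side of zero for 15 of the 16 genes that had another probe set above the array's median level.

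Granulocyte markers averaged 5.45 to 7.6 in Lig4/P53 tumours and 10.11 to 10.68 in pro-B cells, with 8 of 9 lower, and the early B genes Dntt and Vpreb1 were lower, with differences of -7.61 and -6.73. The part of these differences in cell content in the 24 calls was not tested. With the control 3′ excess as a covariate 21 members passed, 19 of them shared, among 19% of all genes. That excess overlapped, at 2.25 to 3.64 in the tumours and 0.93 to 2.95 in pro-B cells. The 18S signal did not overlap, at 4.15 to 6.15 and 10.81 to 11.28, and its part was not tested.

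Bcl6 and Myc/Bcl6 tumours were each compared with GC cells, so these comparisons share the 5 GC arrays. In Bcl6 tumours 14 members rose and 19 fell (39.3% of members, against 26.8% of all genes, 13% higher and 13.9% lower). In Myc/Bcl6 tumours 17 rose and 21 fell (45.2% of members, against 48.1% of all genes, 27.2% higher and 20.9% lower). Complex I subunits were called higher more often than lower, at 10 and 4 of 33 in Bcl6 tumours and 9 and 3 of 33 in Myc/Bcl6 tumours. The 9 of 33 are near the 27.2% of all genes called higher there. The median difference over complex I was negative, at -0.25 in Bcl6 and -0.19 in Myc/Bcl6 tumours, against 0.21 and 0.31 over all genes. Only 15 and 14 of the 33 differences were positive. Complex V was called mostly lower, at 1 higher and 7 lower of 17 in Bcl6 tumours and 2 higher and 6 lower in Myc/Bcl6 tumours, and so was complex III, at 0 and 4 of 8 in Bcl6 tumours and 1 and 4 in Myc/Bcl6 tumours. The difference between complexes was not tested. The balance of rises and falls rested on single arrays. Without Bcl6 replicate 2 it was 15 and 9 (18.8% of all genes called), and without Bcl6 replicate 1 it was 7 and 15 (22%). Without Myc/Bcl6 replicate 3 it was 15 and 11 among 26 calls (36.9% of all genes). Without the 3 arrays of narrow spread 16 rose and 15 fell in Bcl6 tumours (32.1% of all genes) and 20 rose and 28 fell in Myc/Bcl6 tumours (64% of all genes). With the mean of a gene's probe sets 9 rose and 25 fell in Bcl6 tumours (28.5% of all genes) and 11 rose and 27 fell in Myc/Bcl6 tumours (51%). After a renewed quantile normalization 17 rose and 14 fell in Bcl6 tumours (20.7% of all genes) and 18 rose and 15 fell in Myc/Bcl6 tumours (31.8%). The member medians were then -0.02 and -0.01 instead of -0.35 and -0.39.

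**Figure D3:**
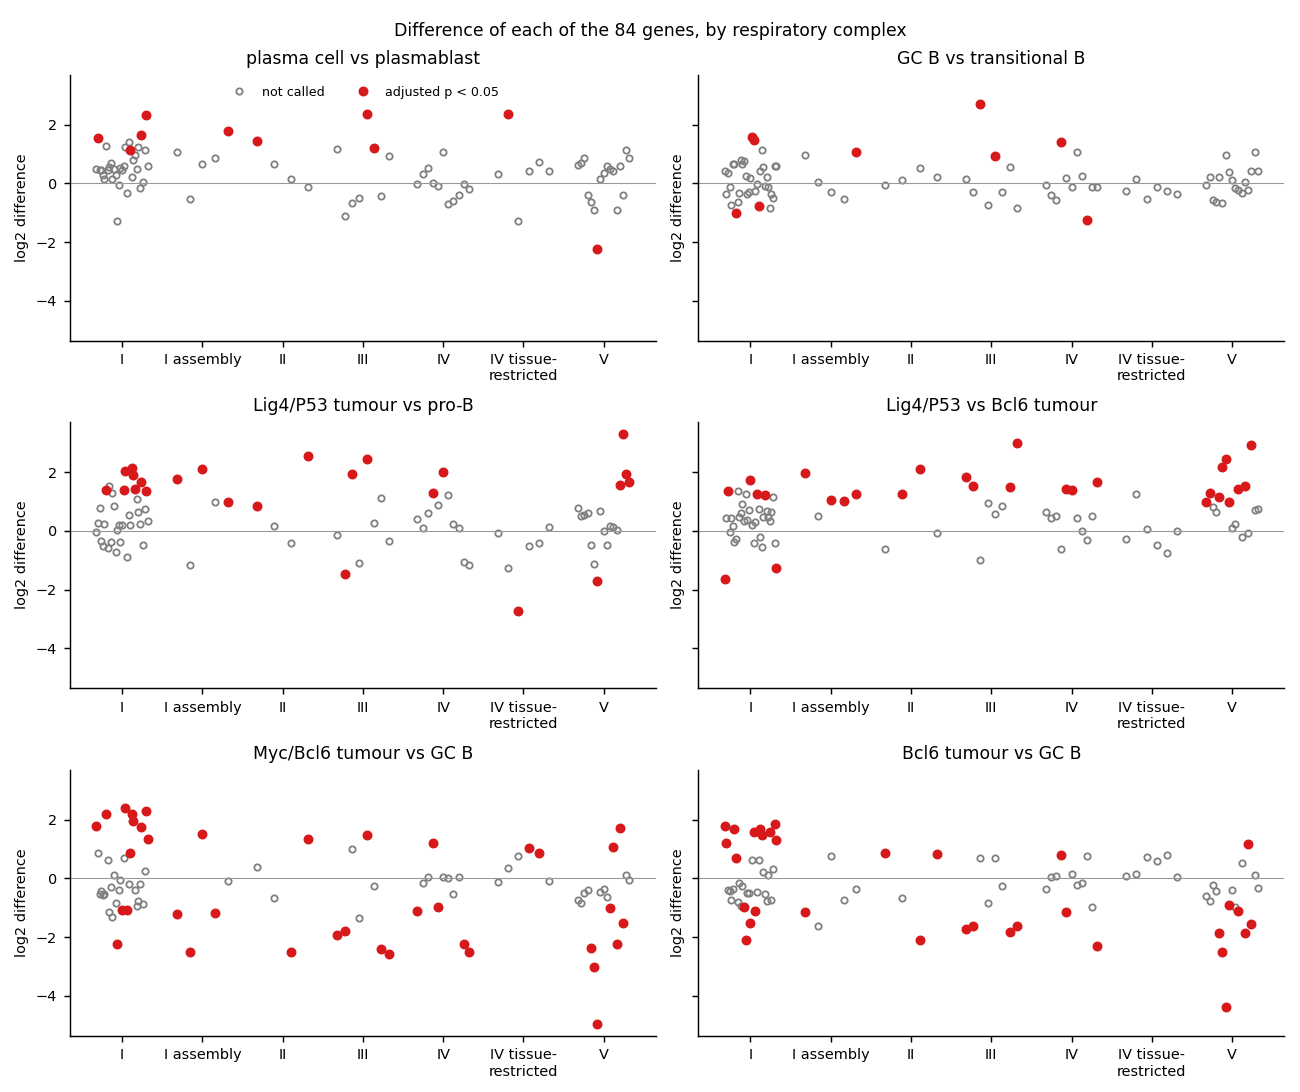
Log2 difference of each of the 84 genes in 6 comparisons, by complex; filled red points have an adjusted p under 0.05 and open points do not. The lowest point in both comparisons of tumours with GC cells is Atp5g2, at -4.94 in Myc/Bcl6 and -4.39 in Bcl6 tumours.

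The member that fell furthest in both comparisons, Atp5g2, is a gene of the c ring. Atp5g1, Atp5g2 and Atp5g3 encode the same mature subunit c with different import peptides. Atp5g2 had 5.09, 5.71, 5.62 and 5.32 in Bcl6 tumours, against 10.12, 9.79, 9.91, 9.38 and 9.93 in GC cells. It fell by -4.39 ± 0.44 (adjusted p = 9.06e-09) with no overlap. In Myc/Bcl6 tumours it had 4.82, 4.95 and 4.90, a fall of -4.94 ± 0.48 (adjusted p = 4.53e-09), and these tumours were again below every GC array. The Myc/Bcl6 values lay below those arrays' median over genes, which was 5.15 to 5.23. The files give no detection calls, so whether they exceed background is unknown and no fold is given. With the 3′ excess as a covariate it was still called, at -3.09 (adjusted p = 0.00102) in Bcl6 and -3.78 (adjusted p = 3.84e-05) in Myc/Bcl6 tumours. Its dim second probe set, which averages 3.35 over all arrays, gave -0.84 (adjusted p = 0.028) in Bcl6 and -0.24 (adjusted p = 0.529) in Myc/Bcl6 tumours.

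Atp5g1 had 8.31, 4.68, 7.15 and 8.0 in Bcl6 tumours, against 9.58, 9.43, 9.76, 9.16 and 9.79 in GC cells. All 4 tumours were lower, with replicate 2 far below the rest, and the fall was -2.51 ± 0.61 (adjusted p = 0.0024), or -1.73 (adjusted p = 0.0304) without that array. Myc/Bcl6 tumours had 7.65, 6.53 and 5.41, a fall of -3.02 ± 0.66 (adjusted p = 0.000551). Both calls were lost with the 3′ excess as a covariate, at -0.90 (adjusted p = 0.565) and -1.59 (adjusted p = 0.145). Atp5g3 had 10.07, 9.14, 10.25 and 10.57 in Bcl6 tumours, against 10.96, 10.94, 11.14, 10.78 and 10.69 in GC cells, a fall of -0.89 ± 0.34 (adjusted p = 0.0497). In Myc/Bcl6 tumours Atp5g3 had 10.76, 11.12 and 9.46, which overlapped the GC arrays (-0.45 ± 0.37, adjusted p = 0.307). In Lig4/P53 tumours Atp5g2 ranged from 6.00 over 8.23 to 9.23, Atp5g1 from 7.68 over 9.19 to 10.55 and Atp5g3 from 10.77 over 10.96 to 11.20.

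Among complex I subunits, Ndufv2 had 10.26, 10.55, 10.42 and 10.43 in Bcl6 tumours, against 9.56, 9.01, 8.04, 8.41 and 7.72 in GC cells. The tumours were close together and above every GC array, with a rise of 1.86 ± 0.30 (adjusted p = 3.11e-05). The Myc/Bcl6 group had 10.73, 10.94 and 10.87, a rise of 2.30 ± 0.33 (adjusted p = 3.17e-06). Ndufc1 had 11.51, 10.70, 10.58 and 11.01 in Bcl6 tumours and 12.04, 11.01 and 11.34 in Myc/Bcl6 tumours, against 9.42, 9.35, 9.26, 9.43 and 8.95 in GC cells. Both tumour groups were above GC cells, by 1.67 ± 0.55 and 2.18 ± 0.60. The other Ndufc1 probe set gave -0.40 and -0.18, and the mean of both 0.63 (adjusted p = 0.317) and 1.0 (adjusted p = 0.105), so the direction depends on the probe set. Ndufb10, an accessory subunit of complex I, and Ndufa4, a complex IV subunit first assigned to complex I, fell by -2.11 ± 0.58 and -2.29 ± 0.48 in Bcl6 tumours and by -2.23 and -2.49 in Myc/Bcl6 tumours.

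In complex II the membrane anchors differed in direction with the probe sets used. Sdhd had 9.22, 9.17, 8.95 and 9.0 in Bcl6 tumours and 9.70, 9.57 and 9.51 in Myc/Bcl6 tumours, against 8.81, 8.37, 7.87, 8.25 and 8.04 in GC cells. Its rises were 0.82 ± 0.28 (adjusted p = 0.0311) and 1.33 ± 0.31 (adjusted p = 0.000979), without overlap. Sdhc had 5.65, 3.44, 6.34 and 6.98 in Bcl6 tumours and 5.28, 5.89 and 4.51 in Myc/Bcl6 tumours, against 7.36, 7.52, 7.90, 8.06 and 7.73 in GC cells. It fell by -2.11 ± 0.45 in Bcl6 tumours and by -2.49 ± 0.49 in Myc/Bcl6 tumours, also without overlap, while its other probe set gave -0.67 (adjusted p = 0.144) and 0.11 (adjusted p = 0.823). Uqcrc2 rose by 1.48 ± 0.31 (adjusted p = 0.000304) in Myc/Bcl6 tumours with the probe set used, while the other gave -0.44, the mean of both 0.52 (adjusted p = 0.225) and the 3′ covariate 1.02 (adjusted p = 0.0576). In Bcl6 tumours its difference was 0.69 ± 0.28 (adjusted p = 0.0648). Uqcrq, a small subunit of complex III (chr11:53427922-53430831), had 4.87, 2.95, 5.45 and 6.55 in Bcl6 tumours and 4.41, 5.21 and 2.42 in Myc/Bcl6 tumours, against 6.96, 6.87, 6.26, 6.46 and 6.34 in GC cells, with falls of -1.62 ± 0.54 and -2.56 ± 0.59. Bcl6 replicate 4 lay among the GC arrays, and all Myc/Bcl6 tumours lay below them, with a fall of -1.77 without replicate 3 and -3.16 without replicate 2. The Myc/Bcl6 fall of Uqcrq was not called with the mean of its probe sets (-0.22, adjusted p = 0.371). With the 3′ excess as a covariate it was -1.85 (adjusted p = 0.079).

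The direction in these tumours often depended on the probe set. Of the called members with another probe set above the array's median level, 7 of 14 in Bcl6 tumours and 12 of 18 in Myc/Bcl6 tumours had another probe set on the opposite side of zero, against 0 of 5 in plasma cells compared with plasmablasts. Ndufc2, an accessory subunit of complex I, rose by 1.46 ± 0.35 in Bcl6 tumours with the probe set used, and its other probe set gave -3.49 ± 0.64 (adjusted p = 0.000118). The corresponding values in Myc/Bcl6 tumours were 1.94 and -4.29 ± 0.69 (adjusted p = 1.5e-05). The other probe set of Sdhd gave -1.74 (adjusted p = 0.0453) in Bcl6 and -2.66 (adjusted p = 0.00342) in Myc/Bcl6 tumours, so no direction can be given for the gene. Of the other Ndufv2 probe sets, 1 gave 1.17 in Bcl6 and 1.07 in Myc/Bcl6 tumours and the other -0.29 and -0.65. For Cox6a1 the other probe set fell by -1.46 and -1.84 where the one used rose by 0.78 and 1.21. Uqcrb, not called with the probe set used, fell by -1.31 (adjusted p = 0.00508) and -0.96 (adjusted p = 0.0367) with the other. Probe sets of Cox6b1 agreed in direction, at -2.65 and -2.99 for the other.

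**Figure D4:**
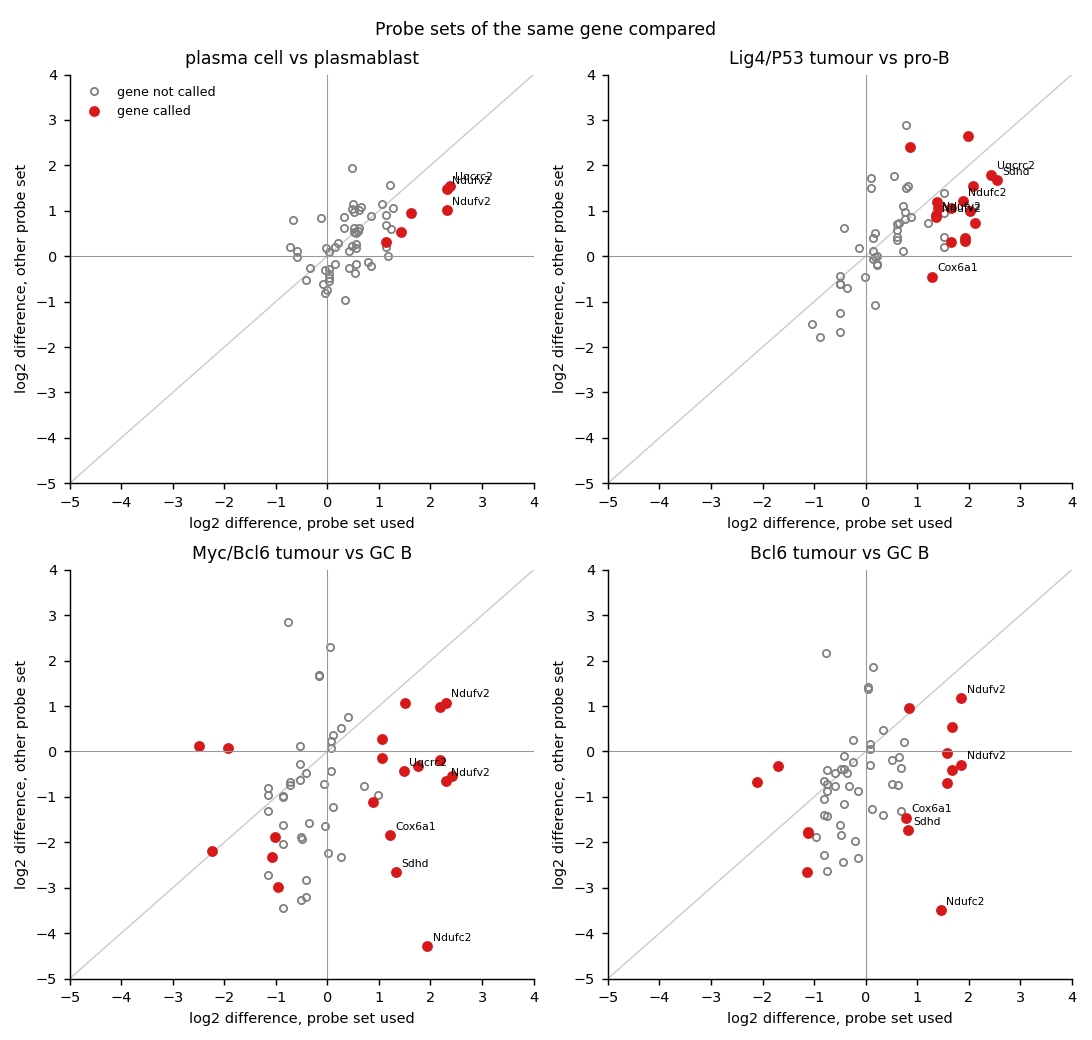
Log2 difference of the probe set used for a gene (x) against each other probe set of that gene above the array's median level (y), in 4 comparisons; red points are called genes. In the upper panels 5 of 5 and 15 of 16 called genes have all values on 1 side of zero, while in the lower panels Ndufc2, Sdhd and Cox6a1 are positive on x and negative on y.

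RNA quality and cell content moved with both comparisons. The control 3′ excess was 3.65 to 4.6 in Bcl6 and 3.23 to 4.69 in Myc/Bcl6 tumours, against 0.68 to 1.55 in GC cells, without overlap. With it as a covariate 2 members passed in Bcl6 tumours (0 higher and 2 lower) and 12 in Myc/Bcl6 tumours (8 higher and 4 lower), among 7.04% and 23.6% of all genes. The B-lineage list averaged 6.45 to 6.85 in Bcl6 tumours and 5.93 to 6.83 in Myc/Bcl6 tumours, against 8.59 to 9.26 in GC cells, with 3 of 4 genes lower in each and the last, Pax5, higher by 1.12 and 1.31. In each, 3 of 3 germinal centre, 5 of 5 NK and 5 of 9 granulocyte genes were lower. Of T-cell genes 1 of 5 was lower in Bcl6 and 4 of 5 in Myc/Bcl6 tumours. Macrophage genes averaged 7.7 to 9.63 in Bcl6 and 7.17 to 8.13 in Myc/Bcl6 tumours, against 5.92 to 7.3 in GC cells, with 3 of 6 higher in Bcl6 and 2 higher and 1 lower in Myc/Bcl6 tumours. The part of cell content in these calls was not tested. Of hepatocyte genes 4 of 5 were higher in Myc/Bcl6 tumours. Without replicate 2, the array with the highest such signal, 38 members were called (41.3% of all genes), 35 of them shared with the fit on all arrays.

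Between tumours, the Lig4/P53 group stood above the Bcl6 group in many members, and Myc/Bcl6 tumours gave no call. Both comparisons share the 4 Bcl6 arrays. In Lig4/P53 against Bcl6 tumours 26 members rose and 2 fell (33.3%, against 26.4% of all genes, 15.5% higher and 10.9% lower). After quantile normalization 15 rose and 6 fell, among 18.8% of all genes. Complex V supplied 9 of the rises, complex I, the assembly factors and complex III 4 each, complex IV 3 and complex II 2. Without Bcl6 replicate 2, the array of narrow spread, 12 members passed (10 higher and 2 lower, 16.7% of all genes), and without all 3 such arrays 27 (23 higher and 4 lower, 30.4% of all genes). The control 3′ excess was 2.25 to 3.64 in Lig4/P53 and 3.65 to 4.6 in Bcl6 tumours, without overlap. With it as a covariate 19 members were called (17 higher and 2 lower, 20.3% of all genes), 16 of them shared, and Atp5g1 was lost (1.40, adjusted p = 0.0999).

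Uqcrq ranged from 7.21 over 8.11 to 8.58 in Lig4/P53 tumours, against 4.87, 2.95, 5.45 and 6.55 in Bcl6 tumours. The groups did not overlap, and the rise was 2.99 ± 0.52 (adjusted p = 7.35e-05), or 2.32 (adjusted p = 0.0012) without Bcl6 replicate 2. No fold is given, since 4.87 and 2.95 lay below those arrays' medians over genes, 5.18 and 5.22. With the mean of its probe sets the rise of Uqcrq was 0.76 (adjusted p = 0.00283). Atp5mpl ranged from 10.39 over 11.41 to 12.32 in Lig4/P53 tumours, against 8.56, 7.98, 8.49 and 8.63 in Bcl6 tumours, and rose by 2.92 ± 0.49 (7.54-fold, adjusted p = 4.72e-05). Atp5g2 rose by 2.45 ± 0.42 (adjusted p = 6.89e-05). No fold is given for it, since its Bcl6 values of 5.09 to 5.71 lay near those arrays' medians over genes, 5.18 to 5.41. Sdhc ranged from 7.35 over 7.71 to 8.07 in Lig4/P53 tumours, above all Bcl6 tumours, with a rise of 2.09 ± 0.44 (adjusted p = 0.000615). The members that fell were the complex I subunits Ndufa1 (-1.65 ± 0.49, adjusted p = 0.012) and Ndufv3 (-1.25 ± 0.28, adjusted p = 0.00116). Ndufa1 ranged from 8.41 over 8.64 to 9.05 in Lig4/P53 tumours, against 11.49, 9.74, 9.95 and 10.22 in Bcl6 tumours, and without Bcl6 replicate 1 its adjusted p was 0.073.

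Myc/Bcl6 against Bcl6 tumours had 0 of 84 called by limma (3.91% of all genes), with 2 at an unadjusted p under 0.05. Without the 3 arrays of narrow spread 7 were called (1 higher and 6 lower), among 29.9% of all genes. The smallest adjusted p was 0.0778, for Cox8a of complex IV, which had 6.89, 6.22 and 5.62 in Myc/Bcl6 tumours, against 7.34, 6.94, 7.92 and 7.88 in Bcl6 tumours (-1.28 ± 0.42). The median difference was -0.01, and differences ran from -1.28 to 0.83. T-cell genes averaged 3.77 to 4.23 in Lig4/P53 and 6.28 to 6.95 in Bcl6 tumours, with 5 of 5 lower. Macrophage genes averaged 5.02 to 6.55 in Lig4/P53 and 7.7 to 9.63 in Bcl6 tumours, with 3 of 6 lower. Of plasma cell genes 3 of 4 were lower (Jchain by -6.62), and of B-lineage genes 3 of 4 were higher. The part of cell content in the 28 calls was not tested.

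Of the tissue-restricted isoforms of complex IV, 6 were measured, and 4 (Cox4i2, Cox7a1, Cox8b and Cox8c, forms of lung, heart and muscle, and testis) did not pass the F-test over normal stages, with adjusted p-values of 0.779, 0.0986, 0.139 and 0.485. Cox6a2, the heart and muscle form, had 6.98, 6.47 and 9.03 in plasma cells, against 5.72, 5.08, 5.06 and 4.67 in plasmablasts. It rose by 2.36 ± 0.55 (adjusted p = 0.00487), and by 1.59 (adjusted p = 0.0424) without plasma cell replicate 3. With replicate 3 as the only plasma cell array the difference was 3.90. No fold is given, since the plasmablast values 5.08, 5.06 and 4.67 lay below those arrays' medians over genes, 5.24 to 5.44. Along development Cox6a2 had 7.25, 8.53 and 6.27 in pro-B cells, 5.91, 4.29 and 6.04 in pre-B cells, 4.09 to 4.95 in transitional cells and 4.55 to 4.99 in GC cells. The gene was thus high at both ends of the series. Cox6b2, the testis form, had 9.84, 6.01 and 6.99 in pro-B cells and 7.63, 5.46 and 6.98 in pre-B cells, which overlapped, and read 3.96 to 4.38 in GC cells and 4.04 to 4.30 in plasma cells. Of skeletal muscle markers, 1 of 5 was called higher in plasma cells (Tnnt3, 3.99), with list averages of 4.57 to 4.83 in plasma cells and 3.31 to 3.82 in plasmablasts.

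Other genes of the pathway were counted in 4 lists. In plasma cells against plasmablasts, where 8.9% of all genes were higher and 5.39% lower, 4 of 15 citrate cycle enzymes rose (Idh3a 0.99, Sucla2 1.11, Pdha1 0.98 and Dlat 1.34), as did 4 of 20 further assembly factors (Sco2 1.24, Oxa1l 1.89, Ttc19 1.97 and Tmem70 1.80) and 3 of 14 regulators of mitochondrial biogenesis (the coactivators Ppargc1b 1.79 and Pprc1 1.63 and the mitochondrial RNA methyltransferase Tfb1m 2.27). Of 9 electron carriers and other respiratory enzymes, Gpd2, a glycerol phosphate dehydrogenase, fell by -2.23. In GC against transitional cells, where 5.29% of all genes were higher and 8.21% lower, Sucla2 (1.02) and Suclg2 (1.70) of the citrate cycle, the assembly factors Cox15 (1.54) and Uqcc2 (1.15) and Gabpa (2.00), the DNA-binding subunit of GABP, rose, while Ppargc1a (-1.19) and Pprc1 (-1.13) fell.

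In Lig4/P53 tumours against pro-B cells, where 13.2% of all genes were higher and 7.91% lower, 7 of 15 citrate cycle enzymes, 7 of 20 assembly factors, 7 of 14 regulators and 3 of 9 carriers rose, and 1 carrier fell. They included Cyc1, the cytochrome c1 of complex III (2.00), the complex III assembly factor Bcs1l (2.29), the mitochondrial RNA polymerase Polrmt (1.73) and the pyruvate dehydrogenase subunit Pdhb (2.43). In Bcl6 tumours against GC cells, where 13% of all genes were higher and 13.9% lower, 0 of 15 citrate cycle enzymes and 2 of 14 regulators rose (Ppargc1b 1.87 and Ssbp1 1.60) and Etfb, an electron transfer flavoprotein subunit, fell by -2.38. In Myc/Bcl6 tumours against GC cells, where 27.2% of all genes were higher and 20.9% lower, 1 citrate cycle enzyme fell (Ogdh, -2.26), 3 regulators rose and 1 fell, and 2 assembly factors rose and 3 fell. In Lig4/P53 against Bcl6 tumours, where 15.5% of all genes were higher and 10.9% lower, 7 of 20 assembly factors rose, with 3 regulators, among them Tfam (1.89), the packaging factor of mitochondrial DNA.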

How the data were processed

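Gene expression of 35 mouse samples was measured on Affymetrix Mouse 430A2 arrays. The deposited values are log2 intensities computed by the authors with RMA, per the submitters' processing notes; which arrays were normalized together is not given in the sources used here. No identical arrays were found, and values ran from 1.71 to 14.29. The 64 control probe sets were left out, and of the 22690 probe sets 20380 had 1 symbol in the platform annotation, 691 several and 1555 none. Only those with 1 symbol were used, 8 probe sets of members' symbols with several names were left out, and each gene took its brightest probe set. Limma 3.58.1 in R 4.3.3 (lmFit, contrasts.fit, eBayes) fitted the 22 normal arrays for steps between stages and the F-test, and all 35 for tumours. P-values were Benjamini-Hochberg adjusted over 12393 genes, and a gene was called at an adjusted p under 0.05. The script was tested on simulated data. Coordinates are RefSeq's, GRCm38.p6.

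The members and lists were chosen with earlier results of these data known. Named genes are Uqcrc2, Sdhd and Ndufv2, up to 4 called members of largest difference in each direction per comparison, the brightest member and that of smallest F-test p in each complex, and the restricted isoforms; other members are named where counts of calls, the c ring, promoter matches or probe set disagreement are given, after their values were seen. Same-numbered replicates did not deviate together in every pair of any comparison, with correlations from -0.491 to 0.391, so numbers were not used as pairs. Alternatives covered the probe set, scaling, array weights, the samples fitted, the control 3′ excess and leaving out arrays. Trp53 and Lig4 levels were not analysed here. The number of arrays limits the precision.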

Additional observations from a re-analysis of the deposited data

Results flagged for a closer look

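Groups of 4 to 6 arrays were searched for a single array far from the others in 210 sets of values, and 15 were found. Chance alone gives about 10.5 (1 in 20) for separate sets. The sets overlap, as single genes and the complex means that hold them were both searched, so the 15 cannot be weighed against the 10.5. Plasmablast replicate 4 was the lowest of its group in 6 of the 15, some of which share genes. Its mean deviation was -0.58 for complex II (-0.03 to 0.08 on the other arrays), -0.43 for complex III (0.34 to 0.41), -0.62 for complex IV (0.2 to 0.23) and -0.5 over the members that are not tissue-restricted (0.11 to 0.22). In it Ndufa1 read 7.11 (8.5 to 8.61 on the others) and Ndufa4 8.57 (9.42 to 9.59). Bcl6 tumour replicate 2, the array of narrow spread, was far from its group in 3. It read 9.9 for Uqcrc2 (10.92 to 10.98), 6.84 for Cox7c (7.57 to 7.67) and 5.63 for Cox7a1 (3.48 to 3.68).

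The other 6 lay in different arrays. Cox5b read 11.5 in GC replicate 4 (11.19 to 11.27), and Ndufaf3 7.76 in plasmablast replicate 3 (7.12 to 7.16). In transitional cells Ndufb6 read 5.83 in replicate 2 (7.82 to 8.09) and Sdhd 7.57 in replicate 4 (8.18 to 8.21). In Lig4/P53 tumours Ndufa5 read 10.8 in replicate 3 (10.09 to 10.18) and Uqcrb 11.63 in replicate 6 (10.94 to 11.19).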

How the results depend on the processing

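Of the named genes' values under the alternatives, 728 kept direction and side of the threshold, 105 lost their call and 11 reversed. Reversals came from the probe set: the mean of probe sets gave -0.46 for Sdhd in Bcl6 tumours and -0.67 in Myc/Bcl6 tumours against GC cells. Another probe set, an alternative chosen after seeing the data, gave in Bcl6 tumours -1.74 for Sdhd, -0.29 for Ndufv2 and -0.40 for Ndufc1, in Myc/Bcl6 tumours -2.66 for Sdhd, -0.65 for Ndufv2, -0.18 for Ndufc1, -0.44 for Uqcrc2 and -0.53 for Ndufb6, and in GC against transitional cells -0.09 for Cox6a1.

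Counts of called members moved as follows, with the share of all genes called in brackets. The cause was not tested. Array weights gave 2 in transitional against pre-B cells (5.12%), 26 in GC against transitional cells (45.3%) and 20 in plasmablasts against GC cells (24.3%). They gave 46 in plasma cells against plasmablasts (50.4%) and 64 over the 6 stages (77.5%). In Lig4/P53 tumours against pro-B cells they gave 40, of which 20 were higher and 20 lower (36%). Fitting only the compared groups gave 26 in GC against transitional cells (42.7%), 12 in plasmablasts against GC cells (13.5%) and 22 in plasma cells against plasmablasts (26.7%). Leaving out the 3 arrays of narrow spread gave 11 in transitional against pre-B cells (14%), 23 in GC against transitional cells (41.5%) and 6 in plasmablasts against GC cells (6.82%). It gave 27 in plasma cells against plasmablasts (32.5%), 7 in Myc/Bcl6 against Bcl6 tumours (29.9%) and 51 over the stages (62.7%). The 3′ excess as a covariate gave 2 in Bcl6 (7.04%) and 12 in Myc/Bcl6 tumours (23.6%) against GC cells and 2 in transitional against pre-B cells (6.76%). It gave 1 in plasmablasts against GC cells (1.15%) and 1 in Myc/Bcl6 against Bcl6 tumours (4.49%). In transitional against pre-B cells the mean of probe sets gave 2 (6.77%), quantile normalization 2 (8.37%) and equal medians 1 (7.25%). In plasmablasts against GC cells equal medians gave 1 (1.33%). Genes above the median level gave 5 in GC against transitional cells (9.26% of such genes). Leaving out plasma cell arrays 1 and 2, chosen after seeing the data, leaves a single plasma cell array, so no count is given for it.

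Leaving out 1 array gave 0 to 0 called members in pre-B against pro-B cells, 0 to 2 in transitional against pre-B cells, 4 to 7 in GC against transitional cells, 0 to 1 in plasmablasts against GC cells, 7 to 15 in plasma cells against plasmablasts, 22 to 33 in Bcl6 and 26 to 38 in Myc/Bcl6 tumours against GC cells, 14 to 33 in Lig4/P53 tumours against pro-B cells, 0 to 2 in Myc/Bcl6 and 12 to 29 in Lig4/P53 against Bcl6 tumours, and 16 to 30 over the stages. The count moved over 1.5 times without some arrays, given with the share of all genes called. In Lig4/P53 tumours it was 14 against pro-B cells without pro-B 1 (12.2%) and 12 against Bcl6 tumours without Bcl6 2 (16.7%). In Myc/Bcl6 against Bcl6 tumours it was 2 without Bcl6 2 (11.2%) and 1 without Myc/Bcl6 1 (5.55%). In plasmablasts it was 1 without GC 5 (0.888%). In GC cells it was 4 without transitional 4 (9.5%) or GC 2 (7.99%), and 5 without transitional 2 (7.59%), GC 1 (8.31%) or GC 4 (10%). In transitional against pre-B cells it was 2 without pre-B 1 (8.5%) or 3 (6.11%) and 1 without pre-B 2 (6.89%) or transitional 2 (4.37%).

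With the replicate number as a block, 1 member was called in plasmablasts against GC cells (0.694% of all genes) and 9 in plasma cells against plasmablasts (12%). There were 6 in GC against transitional cells (8.66%), and 28 in Bcl6 (23.3%) and 35 in Myc/Bcl6 tumours (42.5%) against GC cells. In Lig4/P53 tumours 21 were called against pro-B cells (17%) and 26 against Bcl6 tumours (24.3%), and 16 over the stages (22.4%).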
